A study of Homo sapiens with 30 samples.

Results

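Lysine recoding sites are positions in coding sequence where an A-to-G change in the RNA turns a lysine codon into an arginine or a glutamate codon. They were found by placing every site of the deposited table on 1 coding transcript per gene (GENCODE release 29, GRCh38, the APPRIS principal transcript first and then the longest) and reading the codon before and after the change. Of 382978 sites in the table, 244647 lay in coding sequence and 46224 recoded lysine. That is 12.1% of all sites and 18.9% of the coding ones. The lysine sites fell in 6702 genes and 40061 codons. Lys to Arg was the change at 36781 sites and Lys to Glu at 9443 sites, or 20.4%. At 97.9% of the lysine sites, every coding transcript of the gene that holds the site gave the same change. Exons of another gene overlapped 3243 of the sites (7.02%), and none of these sites is named in what follows, except UBB sites, marked where given.

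The study searched the human embryonic kidney cell line HEK 293T for unintended A-to-G changes made by overexpressed RNA-guided adenosine deaminases. RNA was collected 60 h after transfection, and each transfected condition is 1 library. In 16 libraries MCP, the MS2 phage coat protein, carried the deaminase domain (DD) of either ADAR1 or ADAR2. These fusions were wild type or carried a Glu-to-Gln change (E1008Q in ADAR1, E488Q in ADAR2, both written E-to-Q here), held a signal for nuclear localisation (NLS) or for nuclear export (NES), and came with or without the MS2 adRNA, a guide RNA. A further 4 libraries held full-length ADAR2 as wild type or as E488Q, each with or without a GluR2 adRNA, and 2 held Cas13b-ADAR2 DD (E488Q) with or without its gRNA. Controls were GFP, each of the 3 guides alone, and 4 sequencing runs of 1 untransfected library, of which 3 were used. No condition was repeated, so the constructs are the units of every test, p-values measure the spread between constructs, and 1 construct can enter several pairs, which are then not independent.

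ADAR enzymes convert adenosine to inosine in double-stranded RNA, and the ribosome and reverse transcriptase both read inosine as guanosine. They prefer some neighbouring bases over others, and guanosine just before the adenosine is the best known obstacle. Both lysine codons begin with a pair of adenosines, so the first adenosine always has adenosine after it and the second always has adenosine before it. A change of the first gives glutamate, which reverses the charge of the side chain, and a change of the second gives arginine, which keeps it. The last adenosine of an AAA codon is silent.

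The following stretches of spliced coding sequence, written 5′ to 3′ on the transcript strand with the lysine codon in capitals, belong to sites on which the results below turn. The first 3 had some of the highest gains among Lys-to-Arg sites. Gain here is the mean share of G over the 22 deaminase libraries minus the mean of the untransfected runs, in percentage points.
POFUT2 K426R, chromosome 21, position 45265495, minus strand: acccactggAAGatcacctac
C2CD2L K542R, chromosome 11, position 119113987, plus strand: ggtgtttccAAGgtgcccatt
RRBP1 K254R, chromosome 20, position 17642980, minus strand: acctggcacAAGgccactcag

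The next 4 had the highest gains among Lys-to-Glu sites, and here the first base of the capitals is the one that changed.
ZNF219 K318E, chromosome 14, position 21092345, minus strand: tggttccttAAGaaccacatg
CAMSAP1 K1068E, chromosome 9, position 135821459, minus strand: caggaccacAAAgtgaaggca
SHC1 K93E, chromosome 1, position 154968794, minus strand: ccgggtgctAAGggggcgaca
RPS29 K54E, chromosome 14, position 49585952, minus strand: ggtttcattAAGttggactaa

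The last 7 begin with a codon in which both adenosines changed (RPL35). Then come sites chosen for 1 property of the MCP fusions (FTL, P4HB, RPS2, DDX23). A site known to be edited naturally (CYFIP2) and the ATP-binding lysine of a kinase (MAP2K1) complete them.
RPL35 K19R, chromosome 9, position 124861503, minus strand: gagctgctgAAAcagctggac
FTL K143R, chromosome 19, position 48966635, plus strand: aagcttatcAAGaagatgggt
P4HB K375R, chromosome 17, position 81845924, minus strand: cttgttgggAAGaactttgaa
RPS2 K145E, chromosome 16, position 1962852, minus strand: aagtgctccAAGgaggtggcc
DDX23 K245R, chromosome 12, position 48837543, minus strand: gataagagcAAGgaactgcat
CYFIP2 K320E, chromosome 5, position 157309800, plus strand: agatacattAAGaccagtgct
MAP2K1 K97R, chromosome 15, position 66435236, plus strand: atggccagaAAGctaattcat

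Lysine recoding was for the most part a matter of the second adenosine of AAG. This adenosine held 32467 of the sites, against 7267 at the first adenosine of AAG, 4314 at the second adenosine of AAA and 2176 at its first. The genes with a listed coding site contain 165305 AAG and 134846 AAA codons, and 19.6% of the second adenosines of AAG were listed. The share was 4.40% at the first adenosine of AAG, 1.61% at the first and 3.20% at the second adenosine of AAA, and 5.77% at its silent last adenosine. Over all coding adenosines of these genes it was 6.25%, and over those whose change recodes Glu or Asp, 2.87%. All but 2 of the lysine sites were called, in the sense defined below, in some deaminase library. How the authors chose the sites is not stated in the labels or headers, and the part of expression and depth in these rates was not tested.

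The rates at both positions went with the base before the codon, in different orders. At the first adenosine of AAG, where this base is the direct 5′ neighbour, 7.78% were listed after U, 5.53% after C, 4.83% after A and 2.05% after G. At the second adenosine the order was C with 26.4%, G with 21.1%, U with 10.7% and A with 10.1%. Guanosine before the codon thus went with the lowest listing of the Glu position and the second highest of the Arg position, 1 base further on. Over the base after the codon the rate at the second adenosine ran from 16.4% to 24.2%, and the pair of C before and G after gave the highest rate, 32.2%, against 8.08% for U before and U after.

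**Figure D1:**
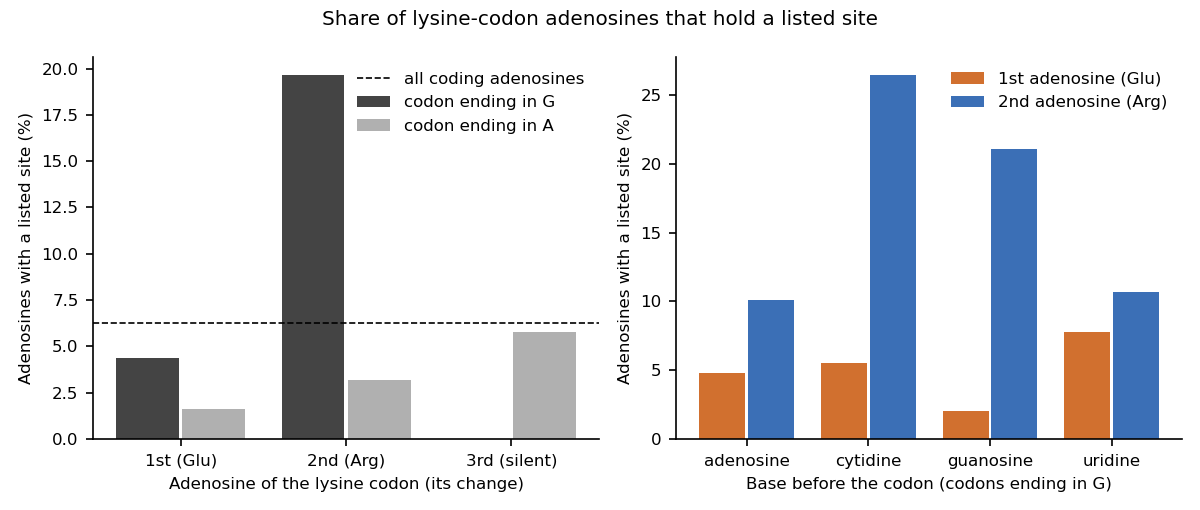
Percent of lysine-codon adenosines that hold a listed site, by position in the codon (left, dashed line: all coding adenosines, 6.25%) and by the base before codons ending in G (right). The second adenosine of codons ending in G stands at 19.6%, and the first adenosine is lowest after guanosine, at 2.05%.

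At the second adenosine of AAG, predicted pairing was least frequent among the sites with the highest gain. In the minimum free energy fold of 71 nt windows, 30.0% of unlisted second adenosines of AAG were paired, against 32.0% of those listed with a gain up to 5 points and 32.2% of those with 5 to 20 points. Among the 461 with a gain over 20 points it was 21.7%. Median GC content of the windows was 49.3%, 54.9%, 57.7% and 59.2% in the same order. These predictions cover short local folds of the spliced message and see no intron or distant partner.

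Most lysine sites were seen in few constructs. Called means, here and below, an adjusted p of the authors under 0.01 together with a share above the untransfected mean. Exactly 1 of the 22 deaminase libraries called 14744 lysine sites (31.9%), against 36.5% of all sites in the table. At least 11 libraries called 4173 (9.03%), against 6.63% of all sites, and all 22 called 64 (0.138%), against 0.130%. Of those 64 sites, 2 changed Lys to Glu. Glu sites were 24.7% of those called once and 11.0% of those called in at least 11 libraries.

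The size of the change was modest at most sites and large at a few. The median gain was 2.72 points at Arg sites and 1.54 points at Glu sites, against 2.60 points over all sites of the table. Gains over 20 points were found at 522 lysine sites (1.13%), against 1.51% of all sites. Among these 522, 461 were second adenosines of AAG, 16 were second adenosines of AAA and 45 gave glutamate. Of the 45 glutamate sites, 28 had U before the codon and 1 had G.

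The highest gain was at POFUT2, an O-fucosyltransferase of the endoplasmic reticulum. Its K426R share was 0% in all 3 untransfected runs and in GFP, and 14.9% at lowest, 51.2% at the median and 82.2% at highest over the 22 deaminase libraries. Every deaminase library was therefore above every control. The gain was 49.9 ± 18.9 points (SD over 22 libraries), and the lysine is residue 426 of 429.

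The next sites lay in proteins with unrelated functions. C2CD2L, a lipid transfer protein of the endoplasmic reticulum, gained 48.5 ± 16.5 points at K542R. LMNA, which encodes lamins A and C of the nuclear envelope, gained 48.1 ± 18.3 points at K542R, with a range of 11.8% to 80.3%. ETV3, an ETS family repressor, gained 47.5 ± 25.1 points at K345R, and its range from 3.12% to 91.9% was the widest of this group. RRBP1, a ribosome-binding protein of the endoplasmic reticulum, gained 44.8 ± 16.2 points at K254R. KIFAP3, the kinesin-2 adaptor, gained 44.1 points at K380R. SPRY2, an inhibitor of receptor tyrosine kinase signalling, gained 43.6 points at K183R. KMT2B, a histone H3 lysine 4 methyltransferase, gained 43.1 points at K468R. All 8 were second adenosines of AAG.

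The highest Lys-to-Glu gains were smaller. The zinc finger protein gene ZNF219 gained 38.2 ± 17.7 points at K318E, with a lowest share of 8.51%, a median of 39.7% and a highest of 67.6%. CAMSAP1, a microtubule minus-end binding protein, gained 37.9 ± 24.4 points at K1068E, the only AAA codon among these 12 sites. Its share was 0% to 77.6%, and the 4 full-length ADAR2 and 2 Cas13b libraries all lay below the lowest of the MCP fusions, 33.3%. SHC1, an adaptor of receptor tyrosine kinases, gained 34.3 ± 21.7 points at K93E, and RPS29, a protein of the small ribosomal subunit, 33.2 ± 18.3 points at K54E. Ribosomal protein genes have many processed copies, so reads at RPS29 may be shared with them and its values are uncertain.

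Where both adenosines of 1 codon were listed, the second was the higher of the pair. There were 6163 such codons, and the comparison holds gene, message and library constant. The mean share at the Arg position exceeded that at the Glu position by 2.54 ± 1.52 points (SD over 22 libraries), and it did so in 22 of 22 libraries (permutation p = 1e-05, two-sided, the smallest that 100000 resamples can give). The difference was 2.80 ± 1.67 points in 5364 AAG codons and 0.743 ± 0.556 points in 799 AAA codons. Of all 6163 codons, 76.7% had the higher gain at the Arg position, which leaves 1433 with the higher gain at the Glu position.

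The size of this difference, and its sign after uridine, went with the base before the codon. It was 3.52 ± 2.15 points after C (2933 codons), 3.16 ± 1.78 after G (1077 codons) and 1.55 ± 1.11 after A (1234 codons). After U it was 0.00996 ± 0.596 points over 919 codons, a mean of groups with opposite signs. The Arg position was higher in 10 of 10 wild-type libraries (0.0384 to 1.53 points) and the Glu position in 12 of 12 E-to-Q libraries (-0.990 to -0.0617 points). Over the 10 matched pairs E-to-Q moved the difference by -0.854 ± 0.848 points after U, lower in 10 of 10. After C it moved it by 2.11 ± 0.727 points, after G by 1.13 ± 0.593 and after A by 0.605 ± 0.214, higher in 10 of 10 pairs each (adjusted p = 0.00195 for all 4, exact two-sided sign-flip permutation test added after the data had been seen). These are differences in points while both positions rose with E-to-Q, and the ratio of the positions was not tested. After G, MCP-ADAR1 DD-NES without MS2 adRNA had mean shares of 8.02% for Arg and 1.90% for Glu. Its E1008Q partner had 11.5% and 5.09%. A wider difference in points is therefore not a larger proportion of Arg. The difference after C exceeded that after U by 3.51 ± 2.39 points, that after G by 3.15 ± 1.89 and that after A by 1.54 ± 1.30, each in 22 of 22 libraries (permutation p = 1e-05, also 1e-05 after adjustment over 3 tests added once the data had been seen). After U the mean gains were 3.65 points at both positions, while after G they were 4.68 points for Arg and 1.53 for Glu.

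**Figure D2:**
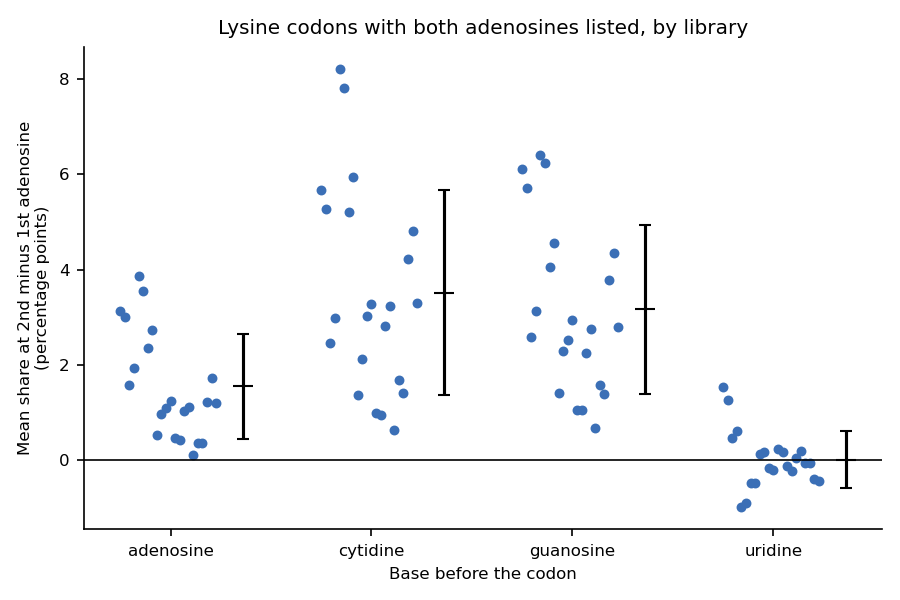
Mean share at the second minus the first adenosine (percentage points) in lysine codons with both adenosines listed, by the base before the codon. Each point is 1 of the 22 deaminase libraries and bars show mean ± SD; after uridine the 10 wild-type libraries lie above 0 and the 12 E-to-Q libraries below it.

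In 71 codons both adenosines gained over 10 points. The 3 with the highest lower gain were UAP1L1 K210, RPL35 K19 and TMCO3 K257. UAP1L1, a relative of the enzyme that makes UDP-GlcNAc, gained 24.8 ± 14.5 points at K210R and 24.7 ± 14.4 points at K210E. RPL35, a large ribosomal subunit protein, gained 25.2 ± 18.1 points at K19R and 20.8 ± 19.2 points at K19E. As at RPS29, reads may be shared with processed copies, so the RPL35 values are uncertain. In the MCP-ADAR1 DD (E1008Q)-NES library with MS2 adRNA both RPL35 adenosines stood at 63.3%, and in full-length wild-type ADAR2 without guide they stood at 0.812% and 0.105%. Shares per site do not say whether both changes sat on the same molecules.

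The number of called lysine sites spanned a wide range over the constructs. It was 372 in full-length ADAR2 without GluR2 adRNA (0.805% of the lysine sites, against 1.50% of all sites) and 30128 in MCP-ADAR1 DD (E1008Q)-NES without MS2 adRNA (65.2%, against 59.2%). The median over 22 libraries was 5514.5. GFP and the guides alone called 1 or 2 lysine sites each, and the 3 untransfected runs called 0 or 1. Read depth per library is unknown, and its part in these counts was not tested.

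**Figure D3:**
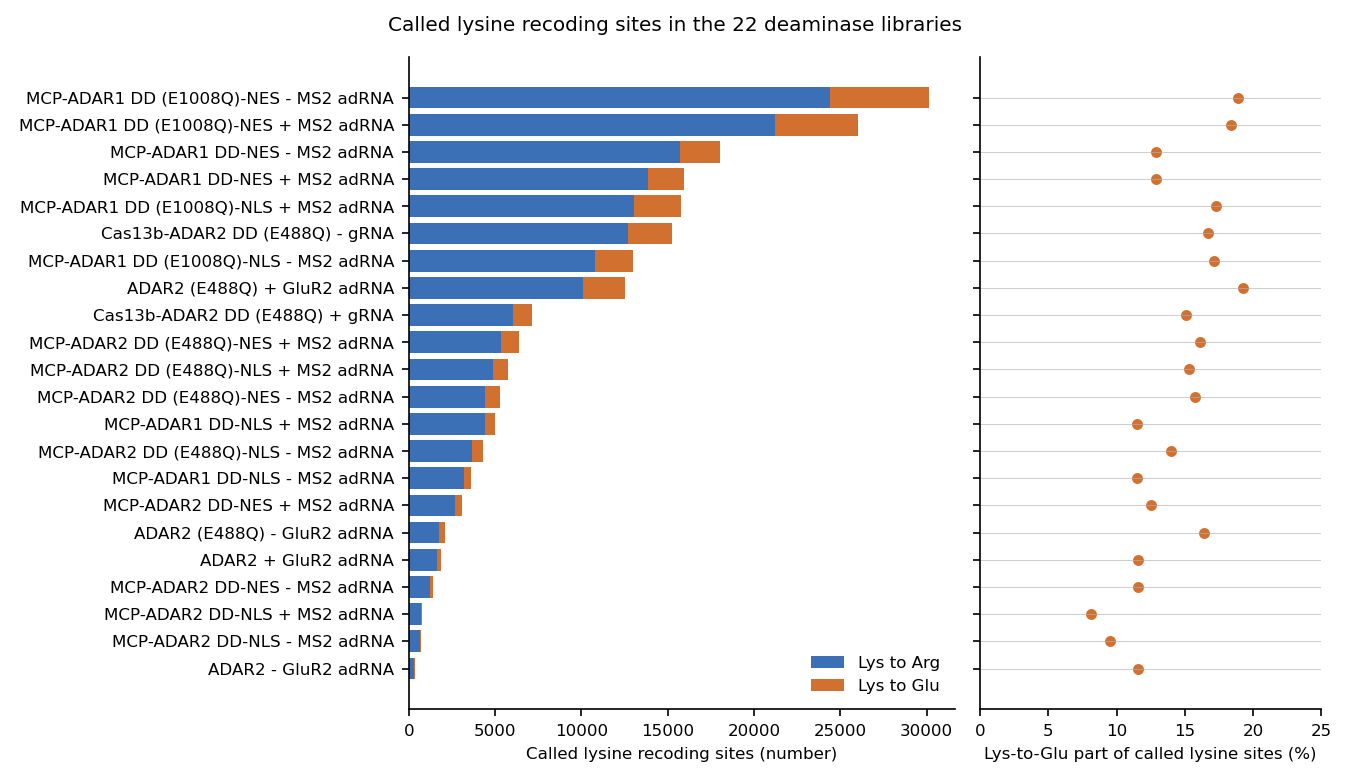
Called lysine recoding sites in each of the 22 deaminase libraries, split into Lys to Arg and Lys to Glu (left), and the Glu part of the called sites in percent (right). Counts run from 372 to 30128 and the Glu part from 8.15% to 19.3%.

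Of the 4 properties of the constructs, 3 went with the count. E-to-Q constructs called 3.66 times as many lysine sites as their wild-type partners, a log2 ratio of 1.87 ± 0.83, higher in 10 of 10 pairs (adjusted p = 0.00781, exact two-sided sign-flip permutation test, adjusted over 4 factors). NLS constructs called fewer than NES constructs, with a log2 ratio of -1.17 ± 0.79 and a lower count in 8 of 8 pairs (adjusted p = 0.0104, same exact test). MCP-ADAR2 DD fusions called fewer than MCP-ADAR1 DD fusions, with a log2 ratio of -2.34 ± 0.70 in 8 of 8 pairs (adjusted p = 0.0104, same exact test). The smallest p these 8 pairs allow is 0.00781. With the guide the log2 ratio was 0.55 ± 1.08, higher in 8 of 11 pairs (p = 0.131, same exact test). Without the Cas13b pair, in which the guide went with fewer sites, it was 0.72 (adjusted p = 0.0195, exact test). In the MCP pairs alone it was 0.284 and did not pass (adjusted p = 0.0781, exact test). With the GluR2 adRNA, full-length ADAR2 went from 372 to 1844 called sites as wild type and from 2104 to 12518 as E488Q.

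The balance between the codon positions also moved with the construct. Lys to Glu made up 16.9% of called lysine sites in E-to-Q constructs and 11.4% in their wild-type partners, a difference of 5.50 ± 1.29 points that was higher in 10 of 10 pairs (adjusted p = 0.00781, exact two-sided sign-flip permutation test). It was 13.0% with NLS and 14.9% with NES, lower by 1.83 ± 1.10 points on average in 8 of 8 pairs (adjusted p = 0.0104, same exact test). It was 12.9% with ADAR2 DD and 15.1% with ADAR1 DD, lower by 2.19 ± 1.03 points in 8 of 8 pairs (adjusted p = 0.0104, same exact test). The guide went with a difference of 0.20 ± 1.24 points (p = 0.644, same exact test).

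For variant, localisation and enzyme, the level with more called sites also had the larger mean Glu part. Single libraries did not always follow this. MCP-ADAR1 DD-NES without MS2 adRNA called 18041 lysine sites with a Glu part of 12.9%. ADAR2 (E488Q) without GluR2 adRNA called 2104 with a Glu part of 16.4%. When the 300 called lysine sites of highest share were taken from every library, a comparison added after the data had been seen, the E-to-Q difference was 3.63 ± 2.74 points (12.7% against 9.10%, higher in 8 of 10 pairs, adjusted p = 0.0312, same exact test). The differences for localisation, -1.38 points, and enzyme, -2.29 points, did not pass in that comparison (adjusted p = 0.167 for both, exact).

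Among the called Arg sites, the AAA codon took a larger part in the same E-to-Q constructs. AAA codons were 8.66% of called Arg sites in E-to-Q constructs and 6.39% in wild-type partners, 2.27 ± 1.31 points higher in 10 of 10 pairs (adjusted p = 0.0234, exact permutation test, adjusted over 12 tests added after the data had been seen). They were 6.45% with ADAR2 DD and 8.89% with ADAR1 DD, lower in 8 of 8 pairs (adjusted p = 0.0312, same exact test). With NLS they were 7.20% and with NES 8.15%, lower in 7 of 8 pairs (adjusted p = 0.0469, same exact test). Among called Glu sites, those with U before the codon were 25.6% with ADAR2 DD and 30.1% with ADAR1 DD, lower in 8 of 8 pairs (adjusted p = 0.0312, same exact test). For the part with G before the codon no difference by variant passed, 12.5% against 12.2% (0.369 ± 4.30 points, adjusted p = 0.793, exact). The AAA part was 3.65% in the library with the fewest called lysine sites and 10.6% in that with the most. None of these parts was compared at equal numbers of sites, so the role of the number of calls was not tested.

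Relative to other coding sites, lysine recoding took a smaller part in E-to-Q libraries. It was 19.9% of called coding sites there and 22.6% in the wild-type partners, lower by 2.73 ± 1.81 points on average in 10 of 10 pairs (adjusted p = 0.00781, exact two-sided sign-flip permutation test). It was 22.4% with NLS and 21.4% with NES, 0.980 ± 1.26 points higher in 7 of 8 pairs (adjusted p = 0.0312, same exact test). For the enzyme the difference was -0.778 ± 1.66 points (adjusted p = 0.302, exact), and for the guide 0.000974 ± 1.26 points (adjusted p = 0.998, exact). Among called sites with a share of at least 10%, the variant difference was -0.782 points (adjusted p = 0.391, exact) and that for localisation was reversed, -1.43 points (adjusted p = 0.0208, exact). In the 2000 called coding sites of highest share per library the variant difference was -1.36 points (adjusted p = 0.119, exact).

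**Figure D4:**
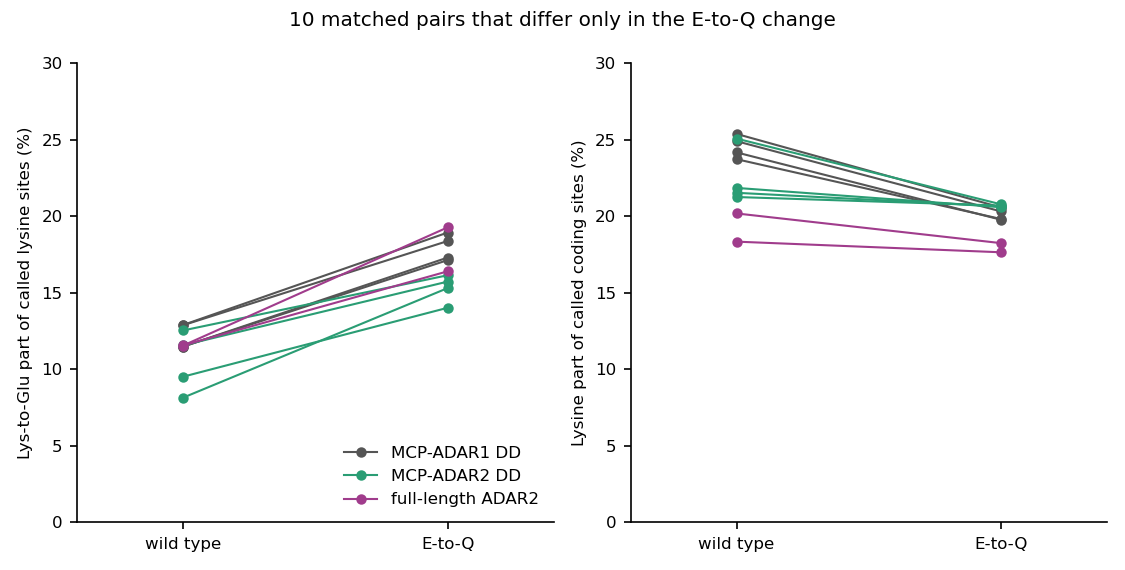
The Lys-to-Glu part of called lysine sites (left) and the lysine part of called coding sites (right), both in percent, in 10 matched pairs joined by lines. With E-to-Q the first is higher and the second lower in every pair.

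Site by site, the 16 MCP libraries were compared with limma on arcsine square roots of the shares, over all 382978 sites of the table, with a Benjamini-Hochberg adjusted p under 0.05. Higher shares with E-to-Q were called at 18000 lysine sites (38.9%, against 39.7% of all sites) and lower shares at 358 (0.774%, against 0.720%). Glu sites were called higher at 42.6% and Arg sites at 38.0%. With ADAR2 DD rather than ADAR1 DD, 32912 were lower (71.2%, against 66.0% of all sites) and 906 higher (1.96%, against 2.60%). The higher calls made up 3.19% of Glu sites and 1.64% of Arg sites. With NLS, 1768 were lower (3.82%, against 3.76%) and 12 higher (0.0260%, against 0.0397%). With the MS2 adRNA 1 lysine site was higher (0.00216%, against 0.000783% of all sites) and 0 were lower (0%, against 0%), while 1327 had an unadjusted p under 0.05. On untransformed shares limma called 0 lysine sites for localisation and 0 for the guide.

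The sites with the largest E-to-Q difference among those that moved the same way in all 8 pairs were FTL K143R and PAPSS2 K534E. Sites named from here to XRCC1 K438R followed the same rule for each factor and direction. Their 8 of 8 pairs therefore come from the choice and add no support. FTL encodes the ferritin light chain. Its share was 56.7% in the E-to-Q fusions and 16.3% in their wild-type partners, 40.4 ± 7.17 points higher in 8 of 8 pairs (limma adjusted p = 3.32e-06), and all 22 deaminase libraries called it. PAPSS2, which makes the sulfate donor PAPS, stood at 49.8% and 12.6% (limma adjusted p = 0.000345).

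A few sites went the other way. P4HB, protein disulfide isomerase, had a K375R share of 19.6% with E-to-Q and 32.6% in wild type, 13.0 points lower on average in 8 of 8 pairs (limma adjusted p = 0.00061). Its share in MCP-ADAR2 DD-NES with MS2 adRNA was 54.4%, the highest of the 22, against 35.0% in the E488Q partner. The base before the P4HB codon is G. MOV10, an RNA helicase, had 6.48% with E-to-Q and 20.9% in wild type at K318R (limma adjusted p = 0.00385), although the authors' p-values called it in 1 library only.

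Among the MCP fusions, the difference between ADAR2 DD and ADAR1 DD at single lysines could be large in either direction. USP15, a deubiquitinase, stood at 10.6% with ADAR2 DD and 61.4% with ADAR1 DD at K606R (8 of 8 pairs, limma adjusted p = 2.78e-06). ZNF710, a zinc finger protein, stood at 16.4% and 66.9% at K489R (8 of 8 pairs, limma adjusted p = 5.31e-06). The reverse was seen at TRO K301E, in the gene of the adhesion protein trophinin, with 38.3% and 4.69% (limma adjusted p = 6.73e-05), and at RPS2 K145E with 36.8% and 5.49% (limma adjusted p = 6.42e-07). At RPS2, a small ribosomal subunit protein, the 8 MCP-ADAR2 DD libraries lay between 22.0% and 51.9%. The 8 MCP-ADAR1 DD libraries lay between 2.29% and 10.6%, a gap for which the site was chosen. Full-length ADAR2 gave 0.513%, 0.734%, 0.585% and 2.63%, against an untransfected mean of 0.288%. Cas13b-ADAR2 DD (E488Q) without and with gRNA gave 1.34% and 0.595% at RPS2, and 0% in both at TRO. The same Cas13b libraries read 61.8% and 40% at ZNF710 and 36.1% and 13.6% at USP15. Full-length ADAR2 gave at most 2.63% at TRO, 12.5% at ZNF710 and 4.55% at USP15. The differences between MCP fusions thus did not hold for every carrier of ADAR2 DD. As a ribosomal protein gene with processed copies, RPS2 is also uncertain.

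Localisation had its clearest exceptions in 12 sites with higher shares under NLS. DDX23, a helicase of the spliceosome, stood at 19.8% with NLS and 0.889% with NES at K245R (8 of 8 pairs, limma adjusted p = 0.0182). Its 4 MCP-ADAR1 DD-NLS libraries lay between 29.2% and 38.3% and the 4 MCP-ADAR1 DD-NES libraries between 0% and 2.24%. DNAJA3, a mitochondrial chaperone, stood at 15.3% and 0.828% at K414R (limma adjusted p = 0.0174), and its adenosine is the outermost base of its exon. The median distance to the nearest exon junction was 17.5 nt for these 12 sites and 39 nt for all lysine sites in transcripts with several exons. No test was made of that difference. The largest falls with NLS were at PCBP4, an RNA-binding protein, with 17.9% and 41.3% at K123R (limma adjusted p = 0.0278), and at PHF20, a chromatin reader, with 11.4% and 34.8% at K762R (limma adjusted p = 0.0268).

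The single guide call was XRCC1 K438R, in a scaffold protein of single-strand break repair. Its share was 1.73% with the MS2 adRNA and 0% without it, higher in 8 of 8 pairs (limma adjusted p = 0.048). The authors' p-values called it in 2 of 22 libraries.

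**Figure D5:**
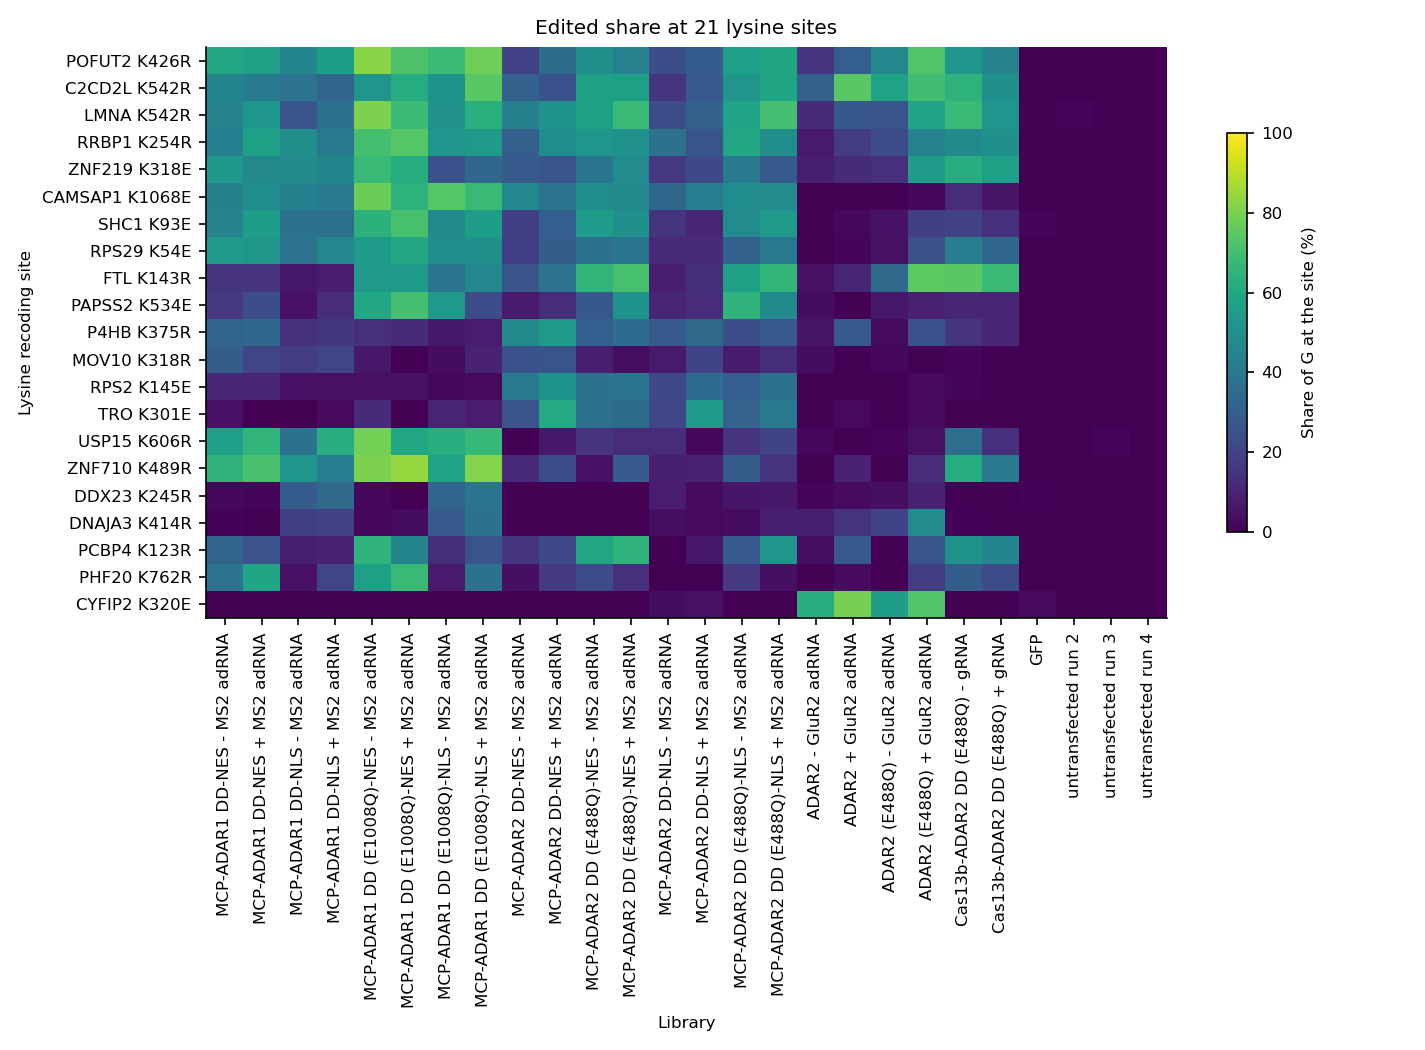
Share of G (percent, colour) at 21 lysine sites (vertical axis) in the 22 deaminase libraries, GFP and 3 untransfected runs (horizontal axis). FTL is bright under E-to-Q, RPS2 under MCP-ADAR2 DD, DDX23 under MCP-ADAR1 DD-NLS, and CYFIP2 in the 4 full-length ADAR2 libraries, where it reads 55.6% to 79.4%.

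Of 4 lysine codons known to be edited naturally in human tissues (NEIL1 K242R, BLCAP K15R, IGFBP7 K95R and CYFIP2 K320E), 1 was listed. NEIL1 and IGFBP7 held no listed coding site at all, so the absence of their codons says nothing about editing there. BLCAP held a listed coding site, though not at this codon. The listed codon was that of CYFIP2. CYFIP2 is a subunit of the WAVE complex, which drives actin branching. Its K320E share was 62.7% in full-length ADAR2 without GluR2 adRNA, 79.4% with it, 55.6% in ADAR2 (E488Q) without it and 72.7% with it. It was 0% in both Cas13b libraries and in all 8 MCP-ADAR1 DD libraries, and at most 4.55% in the 8 MCP-ADAR2 DD libraries. GFP alone read 2.38% and the untransfected runs 0%. The full-length enzyme and the fusions did not overlap.

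Full-length ADAR2 stood well above the MCP-ADAR2 DD fusions at other lysine sites too. Of 42981 lysine sites without overlapping genes, its mean share was more than 30 points above the MCP-ADAR2 DD mean at 44. It was as far below that mean at 15, although the mean over all lysine sites was 2.26% against 2.04%. The same count was not made over all sites of the table, so it does not show a trait of lysine codons. The following were picked after their values were seen and carry no test. FEM1B, a substrate receptor of a ubiquitin ligase, read 27.0%, 44.3%, 40.3% and 67.3% at K10R in the 4 full-length libraries and at most 2.25% in the MCP-ADAR2 DD libraries. STK4, the Hippo pathway kinase MST1, read 14.3%, 41.7%, 33.3% and 77.4% at K480E, against at most 2.22%. TOB2, an antiproliferative protein, read 28.9%, 56.1%, 28.4% and 57.7% at K110R, against at most 5.47%. In Cas13b-ADAR2 DD (E488Q) without and with gRNA, FEM1B read 7.84% and 2.91%, STK4 12.5% and 0%, and TOB2 5.43% and 3.37%.

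A few lysine sites carried G in the untransfected runs. The mean untransfected share was above 10% at 4 lysine sites. FEN1, the flap endonuclease, had the highest, 34.3% at K375R (38.2%, 32.9% and 32.0% in the 3 runs and 33.8% with GFP), and rose to 54.4% in the E-to-Q fusions against 36.0% in wild type (limma adjusted p = 0.000104). SLC35G2, a solute carrier family member, stood at 13.8% at K400R, and 1 deaminase library called it. ADARB1, the gene of ADAR2 itself, read 0%, 41.1% and 0% at K618R in the 3 untransfected runs, so its mean of 13.7% comes from run 3 alone and is 0% without it. GFP read 49.2% there and the guides alone 0% to 0.305%. It read 20.9%, 21.4%, 76.4% and 86.4% in the full-length libraries. Reads from an ADAR2 transgene and from the endogenous gene cannot be told apart there.

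The genes with most lysine sites were PRRC2A, FLNA and FASN. PRRC2A, an RNA-binding protein, had 105, or 54.1% of its 194 recodable lysine adenosines, FLNA (filamin A, which crosslinks actin) 95 and FASN (fatty acid synthase) 93. The median relative position of lysine sites along the coding sequence was 53.9%, against 50.7% for all lysine adenosines of these genes.

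Among the gene lists, ribosomal proteins had the highest listing rate. Of 3422 recodable lysine adenosines in 82 cytosolic ribosomal protein genes, 44.8% were listed, against 7.70% over all genes. At least 11 libraries called 27.1% of their 1533 sites, against 9.03% of all lysine sites and 6.63% of all sites. Their median gain was nevertheless 0.404 points, against 2.45 points over all lysine sites. In limma, 475 of them rose (31.0%, against 39.7% of all sites) and 7 fell (0.457%, against 0.720%) with E-to-Q. With ADAR2 DD 982 fell (64.1%, against 66.0%) and 30 rose (1.96%, against 2.60%). Reads per gene are unknown, so the part of abundance was not tested.

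Ubiquitin and its relatives followed a similar pattern, with 29.7% of 538 adenosines listed and a median gain of 1.01 points. UBB encodes tandem copies of ubiquitin, whose lysine K63 joins one of the chain types. In UBB the change of K63 to Arg gained 12.6, 14.8 and 7.98 points in its 3 repeats, the middle one at a place where another gene overlaps. Repeats and paralogs are nearly identical, so reads can be split between them and these values are uncertain.

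Of 790 lysine adenosines in 15 histone genes, 18.5% were listed. HIST1H2BK gained 33.5 ± 18.5 points at K86R of the coding sequence, which is K85 of histone H2B without its initiator methionine, and all 22 libraries called it. H1F0, the replacement linker histone, gained 10.2 ± 10.1 points at K192R. H3F3A, a histone H3.3 gene, gained 5.97 ± 11.2 points at K5E, which is H3 lysine 4 in the usual count, and 8 libraries called it. Histone genes have close copies, and these values are uncertain too.

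Enzymes that write or erase lysine marks were recoded at some of their own lysines. In 42 lysine methyltransferases and demethylases with a listed coding site, 468 sites were listed (5.33% of their recodable adenosines), and 19 were called in at least 11 libraries (4.06%, against 9.03% over lysine sites). With E-to-Q, 206 rose (44.0%, against 39.7% of all sites) and 4 fell (0.855%, against 0.720%). SETD1B, a histone H3 lysine 4 methyltransferase like KMT2B, gained 31.9 ± 20.5 points at K1015R. In 24 such acetyltransferases and deacetylases, 204 sites were listed (8.31%). With E-to-Q, 84 of these rose (41.2%, against 39.7% of all sites) and 5 fell (2.45%, against 0.720%). KAT8, the histone H4 lysine 16 acetyltransferase, gained 22.7 ± 17.0 points at K454R. SIRT6, a deacetylase, gained 20.9 ± 10.3 points at K300R, and all 8 pairs rose with E-to-Q, from 11.5% to 30.6% (limma adjusted p = 4.25e-05).

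The lysyl hydroxylases and oxidases had 31 sites. JMJD6 gained 23.0 ± 20.2 points at K204R, and PLOD1, which hydroxylates lysines of collagen, 14.9 ± 13.9 points at K330R. Of these 31 sites 13 rose (41.9%, against 39.7% of all sites) and 0 fell (against 0.720%) with E-to-Q.

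In 26 protein kinases of the MAP kinase cascades 165 sites were listed. With E-to-Q, 68 of these rose (41.2%, against 39.7% of all sites) and 0 fell (0%, against 0.720%). With ADAR2 DD 127 fell (77.0%, against 66.0%) and 2 rose (1.21%, against 2.60%). MAP2K1 encodes MEK1, and its K97 is the lysine that holds ATP. Its share at K97R was 0% at lowest, 10.3% at the median and 65.2% at highest, in MCP-ADAR1 DD (E1008Q)-NES without MS2 adRNA. The mean was 6.23% with ADAR2 DD and 39.3% with ADAR1 DD (8 of 8 pairs, limma adjusted p = 1.42e-06). MAP3K2, an upstream kinase, gained 21.0 ± 20.0 points at K581R.

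RNA helicases of the DEAD and DEAH box families held 524 sites in 46 genes. With E-to-Q, 163 of these sites rose (31.1%, against 39.7% of all sites) and 6 fell (1.15%, against 0.720%). With ADAR2 DD 382 fell (72.9%, against 66.0%) and 16 rose (3.05%, against 2.60%). DHX34, a helicase of nonsense-mediated decay, gained 26.0 ± 12.2 points at K774R. DHX38, a splicing helicase, gained 25.4 ± 14.9 points at K899R and was 12.4 ± 7.26 points higher with ADAR2 DD than with ADAR1 DD, in 8 of 8 pairs (limma adjusted p = 0.00104). Importins and other nuclear transport receptors held 239 sites. XPO6, which exports actin, gained 19.1 ± 13.6 points at K717E, and IPO7 18.4 ± 13.9 points at K403R.

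Lysines in known protein motifs were examined by the motif's consensus alone, and a match is no evidence that the motif works in that protein. Of 514 Walker A lysines, which hold the phosphates of ATP or GTP, 26.1% had a site, against 13.3% of all 300151 lysines. At least 11 libraries called 7.74% of the Walker A sites, against 9.03% of all lysine sites. Their median gain was 2.52 points, against 2.45. The part of expression and of neighbouring bases in the rates by motif was not tested. The highest was GNAZ K46R, in a G protein alpha subunit, with 25.0 ± 20.9 points and a range of 3.77% to 64.1%. GNL2, a nucleolar GTPase, gained 22.1 ± 17.4 points at K323R, and rose with E-to-Q from 8.50% to 30.5% (limma adjusted p = 4.44e-05). Of 6086 lysines in a SUMO consensus 9.07% had a site, the highest at COPA, a coatomer subunit, with 42.2 ± 22.0 points at K318R. MAP7, a microtubule-binding protein, gained 33.7 ± 22.6 points at K406R in the same motif.

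Lysines that begin a short basic nuclear signal had a site in 10.6% of 8832 cases, the highest at KMT2B K468R and at PAK4, a kinase, with 28.4 ± 11.6 points at K158R in all 22 libraries called. The smallest classes had low gains. The class I synthetase signature gave 4 of 12 lysines, with CARS K409R at 4.76 ± 4.94 points and CARS2 K320R at 1.75 ± 4.64 points. The KDEL retrieval signal, which returns proteins to the endoplasmic reticulum, gave 4 of 10 lysines, with CALR (calreticulin) K414R at 4.18 ± 5.95 points and P3H1 K733R at 2.21 ± 3.38 points. CALR stood at 0.601% with ADAR2 DD and 11.5% with ADAR1 DD, in 8 of 8 pairs (limma adjusted p = 5.83e-06).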

How the data were processed

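Poly(A) RNA of HEK 293T cells was sequenced as 1 library per condition, per the labels' protocols. Tools listed in the submitters' processing notes include STAR 2.6.0c and bcl2fastq 2.18.0.12, with GRCh38.p12 as the build. The authors deposited a fraction (share of the edited base) per site and sample, per the file headers and values, and a second table of the authors' adjusted p-values, whose test is not stated in the labels or headers. Neither holds read counts, so depth is unknown and no counting interval is given. The table of fractions has 1 unnamed column, which was left out, so untransfected runs 2, 3 and 4 set the control.

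Sites were placed on GENCODE release 29 transcripts (Python 3.11.15, pandas 2.3.3, numpy 2.4.6). Construct factors were compared by exact sign-flip permutation tests over matched pairs, with Benjamini-Hochberg adjustment over 4 factors. Single sites were fitted with limma 3.58.1 (R 4.3.3) with 4 main effects, an intensity trend and 11 residual degrees of freedom. Windows of 71 nt around lysine codons were folded with ViennaRNA 2.7.2, and plots were drawn with matplotlib 3.10.9. The members, gene lists and tests were chosen with earlier results of these data known. Named sites followed a fixed rule: no overlapping gene; the 8 highest gains and 4 highest Glu gains; per limma factor and direction the 2 largest differences of 1 sign in all MCP pairs; naturally edited codons; the 2 highest per gene list and motif; the 3 genes with most sites; the 3 codons with both adenosines highest; and the 3 highest untransfected shares. Names outside it (FEM1B, STK4, TOB2, H3F3A, UBB) were chosen after their values were seen. Some items that the rule names are not reported here. Alternatives were p thresholds of 0.05 and 0.001, a minimum share of 10%, overlap and transcript filters, subsets of pairs, and limma settings.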

Additional observations from a re-analysis of the deposited data

How the results depend on the processing

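Of 102 alternative values, 75 were counted as the same. For the tests this meant the same direction and side of the threshold. For limma it meant a number of called sites not far from that reported. An example is 12799 against 18358 for variant with a highest share of at least 10%. Conditions are 1 library each, so there was no replicate to leave out. The matched pairs are pairs of constructs, and no fit with a replicate block was made because the labels give no replicate numbers that groups share. The following values were not counted as the same, and the cause was not tested except where fewer sites or pairs entered by construction.

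For counts of called lysine sites, the guide ratio was 0.72 (log2) without the Cas13b pair and passed. It was 0.284 in MCP pairs alone and did not pass. For the Glu part with a minimum share of 10%, localisation gave -0.579 points and enzyme -1.20, neither passing, and the guide was reversed at -0.168. With the 300 highest sites per library localisation gave -1.38 and enzyme -2.29, neither passing. For the lysine part of coding sites, localisation gave 0.970 at an adjusted p under 0.05 and 0.604 under 0.001, neither passing, and was reversed at -1.43 with a minimum share of 10% and at -0.188 in the 2000 highest sites. Variant gave -0.782 with the minimum share and -1.36 in the 2000 highest, neither passing, and enzyme gave -3.18 with the minimum share, now passing. The guide difference, 0.000974 as reported, was -0.00796 under 0.001, 0.605 (passing) with the minimum share, -0.00434 with 1 change in every transcript, -0.108 without Cas13b, -0.440 in MCP pairs alone and -0.882 in the 2000 highest.

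For limma, lysine sites called for localisation (1780 in both directions) were 0 on untransformed shares, 2860 without the intensity trend and 2900 with an interaction of enzyme and variant. The single guide call was 0 in these 3 fits and with a highest share of at least 10%. With that filter, enzyme calls were 19242. Localisation and guide calls by site should be read with that in mind. With depth unknown, a share of 0% may rest on few reads.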
